A study of Mus musculus with 2 samples.

Results

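Among the Srf peaks called in HL-1 cells, 587 lay more than 10000 bp from every called region of acetylated histone H3. They are the subject here. HL-1 is a contracting mouse line derived from an atrial tumour, and as a single immortalised line it stands for heart muscle cells only in part. Cells at their highest density were used for chromatin immunoprecipitation and sequencing, with 1 library against Srf and 1 against acetylated histone H3 (H3ac). The labels give no treatment, genotype or age. The Srf list held 2190 peaks and the H3ac list 10486, as positions in mm9 without a score, height or read count, so the depth of either library is unknown. Each antibody has a single library, so replicate spread could not be measured and groups could not be tested against each other. The 95% intervals below reflect the number of peaks counted and nothing else, and they assume that peaks are independent, which close neighbours may not be.

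The members were chosen by position alone. Of the 2190 Srf peaks, 158 that start below 3.1 Mb on their chromosome were left out. Of the 2032 kept, 587 (28.9%, exact Clopper-Pearson interval 26.9% to 30.9%) had a gap of over 10000 bp between nearest edges to the closest H3ac peak. The other 1445 fell into 547 that overlapped H3ac, 613 within 500 bp of it and 285 at 500 to 10000 bp. Every chromosome with a member also had H3ac peaks, so each member has a measured gap. The gaps chose the members and are given as a description.

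Srf (serum response factor) is a DNA-binding protein that recognises a short motif called the CArG box. It works with cofactors of the myocardin family at genes of the contractile apparatus and with ternary complex factors at growth-response genes. In the heart it is known for its part in the expression of sarcomere genes. Acetylation of histone H3 is a mark of active promoters and enhancers, so an Srf peak without it nearby lies outside the regions called with this mark. Which genes or motifs lie at the peaks was not analysed here, because the gene and promoter tables at hand follow another assembly. The positions alone cannot show whether a called peak is a bound site. Nor can they show whether a peak is bound without acetylation, or whether acetylation there was below what the H3ac list calls.

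The far peaks spanned a wide range of distances. Their median gap to H3ac was 42124 bp, with an interval (from binomial ranks of the sorted gaps) of 36607 to 46003 bp and quartiles of 21858.5 and 97819.5 bp. The smallest gap was 10261 bp and the largest 2271280 bp. Between 10 and 20 kb from H3ac lay 133 of them, between 20 and 50 kb 194, between 50 and 100 kb 117, between 100 and 500 kb 117, and beyond 500 kb 26. A gap of more than 100000 bp was found for 143 (24.4%, interval 20.9% to 28.0%), and one of more than 1 Mb for 8. The limit of 10000 bp cuts through a continuous range. The 5 members just inside it had gaps of 10261, 10308, 10358, 10395 and 10473 bp, and the 5 Srf peaks just outside it had gaps of 9616, 9669, 9897, 9956 and 9959 bp.

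Most of the genome is far from H3ac, and Srf peaks were sparse there. Sequence more than 10000 bp from an H3ac peak made up 93.0% of the 2569 Mb between 3.1 Mb and the last peak of each chromosome. It held 589 Srf midpoints, or 0.247 per Mb (exact Poisson interval 0.227 to 0.267). The remaining 180 Mb, within 10000 bp of H3ac or under it, held 1443 midpoints, or 8.01 per Mb (7.60 to 8.43). The zones use the same distances that chose the members, so this contrast is a description and no test of an even spread. The span counts unassembled and unmappable sequence, which can carry no peak of either list and whose share was not measured.

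Beyond 10000 bp the density went on declining with distance. It was 0.973 Srf peaks per Mb at 10 to 20 kb from H3ac (interval 0.815 to 1.15). At 20 to 50 kb it was 0.698 per Mb (0.604 to 0.803), and at 50 to 100 kb 0.413 per Mb (0.341 to 0.495). At 100 to 500 kb it was 0.138 per Mb (0.114 to 0.165). Beyond 500 kb, in 835 Mb, it was 0.0311 per Mb (0.0203 to 0.0456). The first 4 of these intervals each lay above the density of the next zone out. These are the gaps that the rule used, so the densities describe how the members vary and are no test of an even spread, and unmappable sequence may differ between zones. The step across the limit itself was small, since the density at 2 to 10 kb was 1.13 per Mb (0.956 to 1.32), an interval that overlaps that of 10 to 20 kb. The steep part of the decline lay closer in, from 78.1 per Mb in the first 500 bp to 5.62 per Mb at 500 to 2000 bp.

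**Figure D1:**
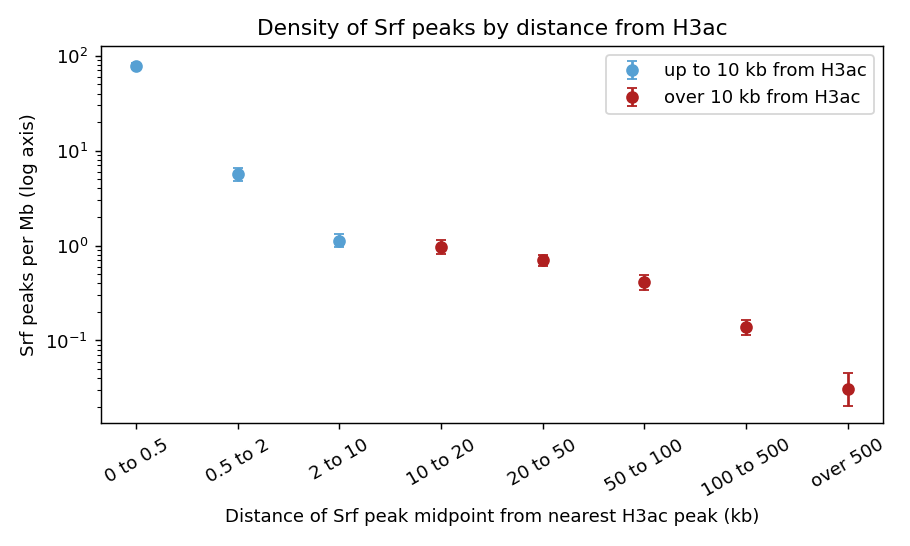
Srf peaks per Mb of sequence (log axis) in zones of distance from the nearest H3ac peak (kb), counted by Srf midpoint. Points are densities, bars are exact 95% Poisson intervals, and midpoints inside an H3ac peak are not shown. Densities declined from 78.1 per Mb in the first zone to 0.973 at 10 to 20 kb and 0.0311 beyond 500 kb.

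As a further description of the gaps that the rule used, a nearer and a more remote zone were compared on each chromosome. On all 20 chromosomes with members, the density at 10 to 50 kb from H3ac was higher than beyond 100 kb. The ratio had a median of 8.34 and ran from 2.18 on chromosome 13 (3 peaks against 7) to 28.9 on chromosome 15 (19 against 3). On chromosome 8, which had the most members, it was 17.0 (45 against 10). Counts per chromosome are small, so neither the order of the ratios nor the difference on a single chromosome is firm. Without chromosome 8 the density went from 0.900 per Mb at 10 to 20 kb to 0.132 at 100 to 500 kb and 0.0329 beyond 500 kb.

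Counted over the stretches between called H3ac peaks, few held a member. Between neighbouring H3ac peaks there were 7705 stretches longer than 20 kb, the shortest that can hold a far site, and 500 of them (6.49%, interval 5.95% to 7.06%) carried a far Srf peak. In 437 of these there was exactly 1, and no stretch held more than 4. The stretch with 4 ran on chromosome 18 from 4921903 to 5162128. Among stretches of 20 to 50 kb 2.24% were occupied, among those of 100 to 200 kb 7.41%, and among those over 1000 kb 16.0%. Per Mb of sequence over 10000 bp from H3ac, the order was the opposite: 1.84 far peaks (1.38 to 2.39) in stretches of 20 to 50 kb, 0.730 (0.610 to 0.867) in those of 100 to 200 kb and 0.0800 (0.0658 to 0.0962) in those over 1000 kb. Stretches of 500 to 1000 kb, with 9.05% occupied, fell below those of 200 to 500 kb, with 10.8%. The longest stretches were thus the most often occupied and the most thinly. The place of the members within their stretches restates their gaps. On a scale from 0 at 10000 bp from H3ac to 100 at the middle of the stretch, their median position was 37.4 (quartiles 13.6 and 65.6, n = 577). The other 10 members lay between a chromosome end and the H3ac peak nearest to that end. Among these were 7 at 3 to 4 Mb on chromosome 16, more than in any stretch between H3ac peaks.

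The H3ac peaks nearest to the members were like the whole H3ac list in width, the only trait compared. The 587 members had 519 different nearest H3ac peaks, whose median width over members was 185 bp, as over the whole H3ac list. Of the members, 12.4% (9.88% to 15.4%) had a nearest H3ac peak of 1000 bp or wider, beside 10.9% of all H3ac peaks (10.3% to 11.5%). The gap to broad acetylated domains is bound up with the rule, because they are part of the H3ac list and each far peak is over 10000 bp from them by definition. As a description, the median gap to an H3ac peak of at least 1000 bp was 354187 bp for far peaks (315570 to 411884 bp), against 87300 bp for the overlapping Srf peaks, 209278 bp for those within 500 bp and 110517 bp for those at 500 to 10000 bp. Further out, between 100 kb and 1 Mb from the midpoint, far peaks had a median of 12 H3ac peaks (quartiles 6.5 and 23), against 18 (9 and 32) for the other kept Srf peaks.

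Far peaks had a close Srf neighbour less often than the other classes, although most peaks of every class had none. Another Srf peak lay within 10000 bp of 52 of the 587 (8.86%, interval 6.69% to 11.5%). The corresponding share was 33.5% (29.5% to 37.6%) of Srf peaks overlapping H3ac, 19.2% (16.2% to 22.6%) of those within 500 bp and 35.4% (29.9% to 41.3%) of those at 500 to 10000 bp. The interval of the far peaks lay below each of the other 3. Each peak of a close pair is counted on its own, so all these intervals are likely too narrow. With the megabase bins that hold 8 or more Srf peaks and the first 4 Mb of each chromosome left out, the share was 7.03% (4.97% to 9.60%) for far peaks. It was then 20.8% (16.8% to 25.3%), 12.6% (9.80% to 15.9%) and 25.6% (19.7% to 32.3%) for the other classes in the same order. The median gap to the nearest other Srf peak was 138041 bp for far peaks (118446 to 178370 bp), against 45146, 85703 and 28485 bp. Peaks next to each other tend to share a distance class, and no test of these differences was made. The shares were not adjusted for the density of Srf midpoints. It was 0.247 per Mb over 10000 bp from H3ac and 8.01 per Mb in the remaining sequence. Whether far peaks have more or fewer close neighbours than their density alone would give was not tested.

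**Figure D2:**
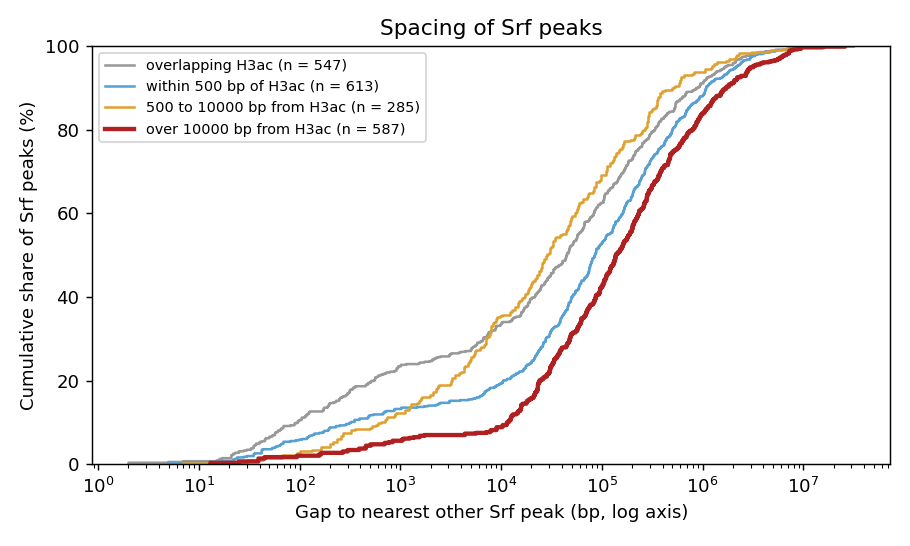
Cumulative share (%) of Srf peaks by the gap to the nearest other Srf peak (bp, log axis), for the 4 classes of distance from H3ac. The curve of far peaks runs below the others between 1000 bp and 1 Mb, with a median gap of 138041 bp.

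Of the 52 far peaks with a neighbour within 10000 bp, 49 had a far one as the nearest. The rule nearly fixes this count, since 39 of the 52 lay over 20000 bp from H3ac, which leaves little room for so close a neighbour to be anything but far. Within 100000 bp, 249 far peaks (42.4%) had another Srf peak, and the nearest one was itself far in 130 of these (52.2%, interval 45.8% to 58.6%), a share that the rule also raises. It overlapped H3ac in 35 (14.1%), lay within 500 bp of it in 46 (18.5%) and at 500 to 10000 bp in 38 (15.3%).

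Chained by gaps of at most 10000 bp, the members formed 538 single peaks, 17 pairs, 3 groups of 3 and 1 group of 6. The group of 6 lay on chromosome 16 from 3231772 to 3240457, over 8685 bp and 503789 bp or more from H3ac. Its peaks were 199, 218, 195, 139, 111 and 138 bp wide in genome order. This group lies close to the chromosome start, just past the excluded part, and 13 members in all start below 4 Mb. Of the groups of 3, the one on chromosome 2 reached from 181652101 to 181653488, with widths of 189 to 199 bp and H3ac 12047 bp away. Another, on chromosome 8, reached from 23543633 to 23545149, with widths of 119 to 161 bp and H3ac 21244 bp away. The last, on chromosome 9, reached from 44089630 to 44096200, with widths of 112 to 184 bp and H3ac 13479 bp away. The fifth place by size was a tie of 17 pairs. In 33 members the nearest Srf peak was within 1000 bp, at a median gap of 268 bp (13 to 838 bp), a spacing at which the lists do not show whether 1 site was split or several were bound. Counted by peak, the share with a close neighbour was highest in the most remote zone. Beyond 500 kb from H3ac, 10 of 26 members (38.5%, interval 20.2% to 59.4%) had a neighbour within 10000 bp, beside 9 of 117 at 100 to 500 kb. Of these 10, 6 were in the group on chromosome 16. The rest were a pair on chromosome 12 from 75904835 and a pair on the X chromosome from 73843926. Peaks of a group are not separate cases, so the share rests on few places and its interval is likely too narrow.

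In width the far peaks resembled other Srf peaks that did not overlap H3ac. Their median was 173 bp (interval 165 to 181 bp, quartiles 128 and 216 bp, range 99 to 767 bp). Peaks within 500 bp of H3ac had a median of 172 bp (165 to 181 bp), those at 500 to 10000 bp 159 bp (149 to 168 bp) and those overlapping H3ac 188 bp (178 to 198 bp). The classes parted in the upper tail. Of the far peaks 34 (5.79%, 4.04% to 8.0%) were 300 bp or wider, close to the 6.85% and 5.96% of the other classes without overlap, whereas 19.2% (16.0% to 22.8%) of the overlapping peaks were. A wide peak meets an H3ac peak more easily by its length alone. How much of the share of wide overlapping peaks comes from this was not tested. Exactly 198 bp was the commonest width among the far peaks, with 25 of them (4.26%, 2.77% to 6.22%), and 4.71% of the other kept Srf peaks had it too.

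**Figure D3:**
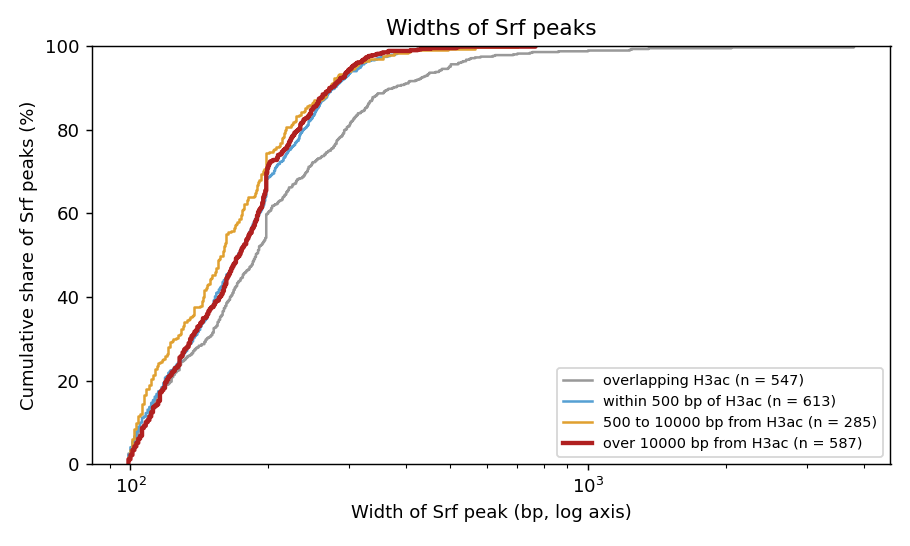
Cumulative share (%) of Srf peaks by width (bp, log axis) in the 4 classes of distance from H3ac. The curve of far peaks (median 173 bp) nearly coincides with that of peaks within 500 bp of H3ac (median 172 bp), the overlapping peaks have the long upper tail, and the step in each curve is at 198 bp.

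Among the far peaks, width hardly moved with distance. The median width was 171 bp at 10 to 20 kb, 166 bp at 20 to 50 kb, 179 bp at 50 to 100 kb, 168 bp at 100 to 500 kb and 188.5 bp (140 to 218 bp, n = 26) beyond 500 kb, all with overlapping intervals. Across the 587 members Spearman's rho between gap and width was 0.04, a description over peaks of 1 library. The number that ends each peak identifier, whose meaning the lists do not state and which was lower for wider far peaks (Spearman's rho -0.919 between width and the percentile of the number), placed far peaks in the middle of their chromosomes' Srf peaks. Their median percentile by this number was 51.4 (47.7 to 55.3), beside 46.1 for overlapping peaks, 53.8 for those within 500 bp and 61.2 for those at 500 to 10000 bp.

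The 10 widest far peaks were examined singly. The widest spanned 767 bp on chromosome 13 from 85266460 to 85267227, lay 61708 bp from H3ac and had another far Srf peak 13 bp away. The second, 519 bp on chromosome 12 from 68160184 to 68160703, was also among the most remote, with a gap of 1886590 bp and no other Srf peak within 5605040 bp. On chromosome 10 a peak from 95540078 to 95540593 (515 bp) had a gap of 136080 bp. It carries the first identifier number of its chromosome. On chromosome 18 a peak from 75759417 to 75759870 (453 bp) lay 96538 bp from H3ac. The fifth by width, on chromosome 2 from 172878406 to 172878837 (431 bp), had the smallest gap of the 10, 27277 bp. On chromosome 1 a peak from 92650741 to 92651165 (424 bp) had a gap of 150426 bp. The peak of 409 bp at 70474639 to 70475048 on chromosome 14 had a gap of 78199 bp. A peak of 366 bp at 10666939 to 10667305 on chromosome 17 had a similar gap, 76337 bp. Another 2 lay on chromosome 12. The one from 75905169 to 75905534 (365 bp) was 790891 bp from H3ac with a second far peak 164 bp away, and the one from 98299721 to 98300077 (356 bp) was 1197240 bp from H3ac. Except for those on chromosome 13 and at 75905169 on chromosome 12, these 10 had no other Srf peak within 10000 bp.

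The most remote members were of ordinary to large width. The largest gap, 2271280 bp, belonged to a peak of 256 bp on chromosome 6 from 103598994 to 103599250. Next came a peak of 353 bp on the same chromosome from 79768042 to 79768395, with a gap of 2105404 bp. These carry identifier numbers 3 and 1 of chromosome 6. After the peak of 519 bp on chromosome 12 followed a peak of 135 bp on chromosome 5 from 17080394 to 17080529 (1639279 bp) and a peak of 227 bp on the X chromosome from 84483631 to 84483858 (1461145 bp). All 5 were solitary, with the nearest other Srf peak at least 1506848 bp away.

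By chromosome, the far share was lowest on chromosome 11, with 18.5% of its 146 kept Srf peaks (12.6% to 25.8%). It was highest on chromosome 13, with 50% of 34 (32.4% to 67.6%). Chromosomes 6, 16, 3 and 18 followed chromosome 13 with 45.6%, 45.5%, 44.4% and 41.7%, and their intervals overlap its own. At the lower end chromosomes 14, 17, 4 and 8 had 19.4%, 21.6%, 21.7% and 22.3%, with intervals that overlap that of chromosome 11. The intervals of chromosomes 3, 6, 7, 12, 13 and 16 lay wholly above that of chromosome 11, and no test between chromosomes was made. The far share was lower where H3ac peaks were dense, with Spearman's rho of -0.657 over the 20 chromosomes between H3ac peaks per Mb and the share. More H3ac peaks leave less sequence far from one, so the share is not independent of that density. How much of the relation comes from this was not tested. The number of far peaks per Mb of chromosome went the other way, with rho 0.725, and that of the other Srf peaks had rho 0.893. These values are descriptions over chromosomes that share the same 2 libraries. Far peaks per Mb had a median of 0.215 and ran from 0.0857 on the X chromosome to 0.539 on chromosome 8, and the other Srf peaks had a median of 0.535 and ran from 0.145 on chromosome 13 to 1.87 on chromosome 8.

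**Figure D4:**
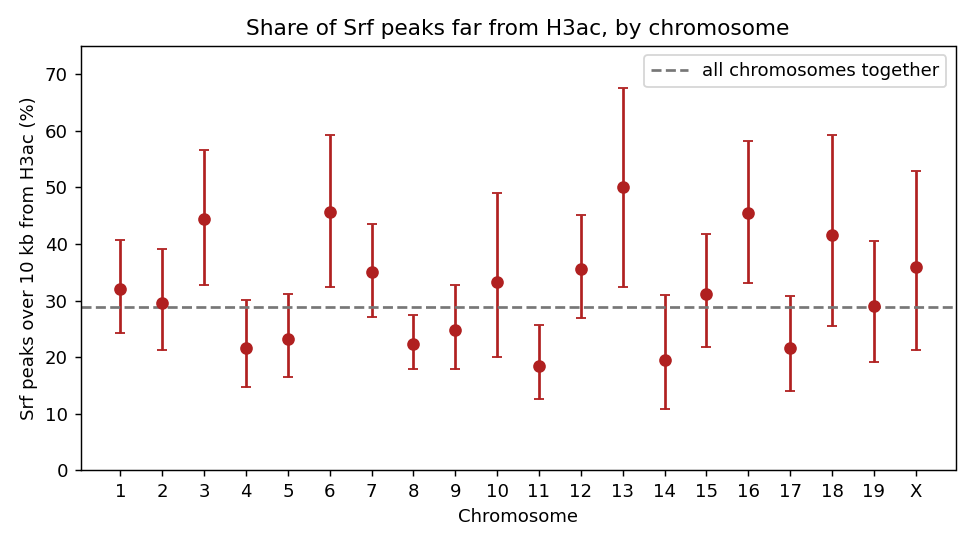
Share (%) of the Srf peaks of each chromosome that lay over 10 kb from H3ac, with exact 95% Clopper-Pearson intervals; the dashed line is the share over all chromosomes, 28.9%. Chromosome 13 is highest at 50% and chromosome 11 lowest at 18.5%.

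At a finer scale the members were counted in bins of 1 Mb. They fell into 410 bins, of which 293 held exactly 1, and 9 bins held 4 or more, with 45 members together. How many bins an even spread would fill was not computed, so these counts do not show whether the members were scattered or clumped. The fullest bins had 7 each. One, at 3 to 4 Mb on chromosome 16, held no other kept Srf peak, and one, at 124 to 125 Mb on chromosome 8, held 34 Srf peaks in all. In the 30 bins with 8 or more Srf peaks, 65 of 442 were far (14.7%, 11.5% to 18.4%), against 522 of 1590 elsewhere (32.8%, 30.5% to 35.2%). The dense block on chromosome 8 from 122 to 130 Mb had 27 far peaks among 175 (15.4%, 10.4% to 21.6%), and the rest of that chromosome had 42 of 134 (31.3%, 23.6% to 39.9%). Bins at 124 to 125 Mb (34 Srf peaks) and 126 to 127 Mb (21) in this block are among the 30, so these comparisons overlap. No count of H3ac peaks per bin was set beside these shares.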

How the data were processed

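Peaks were called by the authors in 1 Srf and 1 H3ac library from HL-1 cells. Per the file headers, each row of the deposited lists holds a peak identifier, its chromosome and its 2 ends. Positions follow mm9, a build named in the submitters' processing notes. For the aligner, peak caller, input control, filters and base of the positions (0 or 1), nothing is given in the sources used here.

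Widths are end minus start, and gaps run between nearest edges. Neighbours were sought among all 2190 Srf peaks. Densities used Srf midpoints and the length of sequence in each zone of distance from H3ac, between 3.1 Mb and the last peak of each chromosome. Shares have exact Clopper-Pearson intervals, densities exact Poisson intervals and medians intervals from binomial ranks, all at 95%. No test was run, since there is 1 library per antibody. The members, classes, zones and thresholds were chosen with earlier results of these data known. Named peaks are the 10 widest, the 5 with the largest gap, the 5 on each side of the limit and the largest groups. The gene and promoter tables at hand follow assembly GRCm38.p6, so the planned comparisons of CArG boxes, start sites and gene lists were not made. Alternatives changed the limit, the H3ac and Srf peaks counted and the way gaps were measured. Gaps and zones were tested on simulated lists. The software was scipy 1.17.1, numpy 2.4.6 and pandas 2.3.3 under Python 3.11.15, with figures by matplotlib 3.10.9.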

Additional observations from a re-analysis of the deposited data

Results flagged for a closer look

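Among the 158 Srf peaks that start below 3.1 Mb and were left out, 14 (8.86%, exact interval 4.93% to 14.4%) also lay over 10000 bp from H3ac or had no H3ac peak on their chromosome. They are given because they lie outside the comparisons above. They comprised 7 on chromosome 17, 4 on chromosome 11 and 1 each on chromosomes 3, 9 and Y, the last without any H3ac peak. Their median width was 164.5 bp, and 12 of the 14 had another Srf peak within 10000 bp.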

How the results depend on the processing

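Of 44 alternative values, 34 stayed within the reported interval and 10 moved. The far share was 32.7% with a limit of 5000 bp, 22.3% with 20000 bp and 12.8% with 50000 bp, which follows from the limit. It was 34.9% with H3ac peaks of at least 100 bp and 58.3% with those at or above the median width (1185 far peaks), because fewer H3ac peaks were counted. That last setting also gave 14.3% with an Srf neighbour within 10000 bp and 37.1% with no H3ac peak within 100000 bp. Neighbours within 100000 bp gave 42.4%. Restricting the Srf list to its wider peaks, from the median up, gave a median far width of 221.5 bp, by construction. Leaving out megabase bins of 8 or more Srf peaks gave a far share of 32.8%. This setting, leaving out chromosome 8 and starting at 4 Mb were added after seeing the data. No paired analysis was possible because each antibody has 1 library. Planned comparisons of CArG boxes and start sites were not run. Unknown read depth limits both lists: a site counted as far may carry acetylation that was not called.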
